A study of Mus musculus with 5 samples.

Results

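The regions described here are the 7 smallest classes in a list of Stat3 and glucocorticoid receptor (GR) binding regions, numbered clusters 1, 8, 9, 10, 11, 12 and 13 by the authors. They were taken by their cluster number alone, each class having under 200 regions, and together they hold 584 of the 5670 listed regions, 10.3% (exact 95% binomial interval 9.52% to 11.1%). The other 5086 regions, in clusters 2 to 7, served as the comparison. AtT-20 cells, a mouse pituitary tumour line used as a model of corticotrophs, were studied in 5 chromatin immunoprecipitation sequencing (ChIP-seq) libraries, each made from 5 separate ChIPs whose DNA was combined. These were Stat3 after LIF, Stat3 after Dex+LIF, GR after Dex+LIF, GR after Dex, and a control of rabbit IgG pooled over the treatments. LIF is leukemia inhibitory factor and Dex is dexamethasone, a synthetic glucocorticoid. Both were added to the medium for 20 min, and no untreated ChIP is among the 5 libraries. The Stat3 libraries used antibodies to Stat3 and to its phosphorylated form, and each group is a single cell line and a single library, with no replicate.

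Stat3 is a transcription factor that cytokine receptors switch on through JAK kinases. After LIF binds its receptor, Stat3 is phosphorylated, dimerises and binds short palindromic DNA elements. GR is a nuclear receptor that enters the nucleus on binding its hormone, where it can bind DNA itself as a dimer or be held at a site through another DNA-bound factor. In corticotrophs, LIF raises and glucocorticoids lower transcription of Pomc, the gene for the ACTH precursor. The series' title names direct and indirect recruitment of the 2 factors to DNA.

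The sources used here do not say which factor or treatment each cluster stands for, nor what the study says of each class. The list gives a position and a cluster number for each region and no height, enrichment or read count, so depth and IgG background are unknown. The classes are therefore set side by side by size, place in the genome, spacing and neighbours. Positions are in the mouse build mm9, printed as listed, and each is a point. No mm9 genome or annotation was used, so genes, exons, introns and DNA sequences at these points are not given. Regions are not replicates, and neighbouring regions are not independent. The intervals and p-values below cover counting error in this list only, not error between experiments, and may be too narrow for that reason.

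The 7 classes ranged over 33-fold in size. Cluster 1 had 198 regions and made up 33.9% of the 584. With the 129 regions of cluster 11 (22.1%) and the 116 of cluster 13 (19.9%), these 3 classes held 443 regions, or 75.9%. Next in size came clusters 12, 8 and 9, with 59 (10.1%), 47 (8.05%) and 29 regions (4.97%). Cluster 10 had only 6 regions (1.03%), 0.106% of the whole list with an interval of 0.0388% to 0.230%.

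The classes were spread over the genome. Regions of the 7 classes were found on all 20 chromosomes, and they made up between 6.33% (chromosome 17, 10 of 158) and 13.4% (chromosome 10, 51 of 380) of a chromosome's listed regions. Chromosome 10 had 8.73% of the 584 and 6.47% of clusters 2 to 7. Chromosome 11, which holds 512 listed regions, had 8.39% of the 584 and 9.10% of clusters 2 to 7. No test was made of these shares.

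Single classes had their largest counts on different chromosomes. Cluster 1 had 20 regions on chromosome 10 and 18 on chromosome 9. Cluster 8 had 8 of its 47 regions on chromosome 5 (17.0%, interval 7.65% to 30.8%), where clusters 2 to 7 had 6.02% of theirs. Cluster 12 had 9 of its 59 on chromosome 9 (15.3%, interval 7.22% to 27.0%), where clusters 2 to 7 had 5.23%. Cluster 11 was largest on chromosome 2, with 15 regions, and cluster 13 on chromosome 11, with 13. The X chromosome had 5 regions of cluster 1, 1 of cluster 8 and 1 of cluster 12. It had none of the 245 regions of clusters 11 and 13, with exact intervals up to 2.82% and 3.13%. Clusters 2 to 7 had 1.298% of their regions there, which both intervals include. These chromosomes were picked after the counts were seen.

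**Figure D1:**
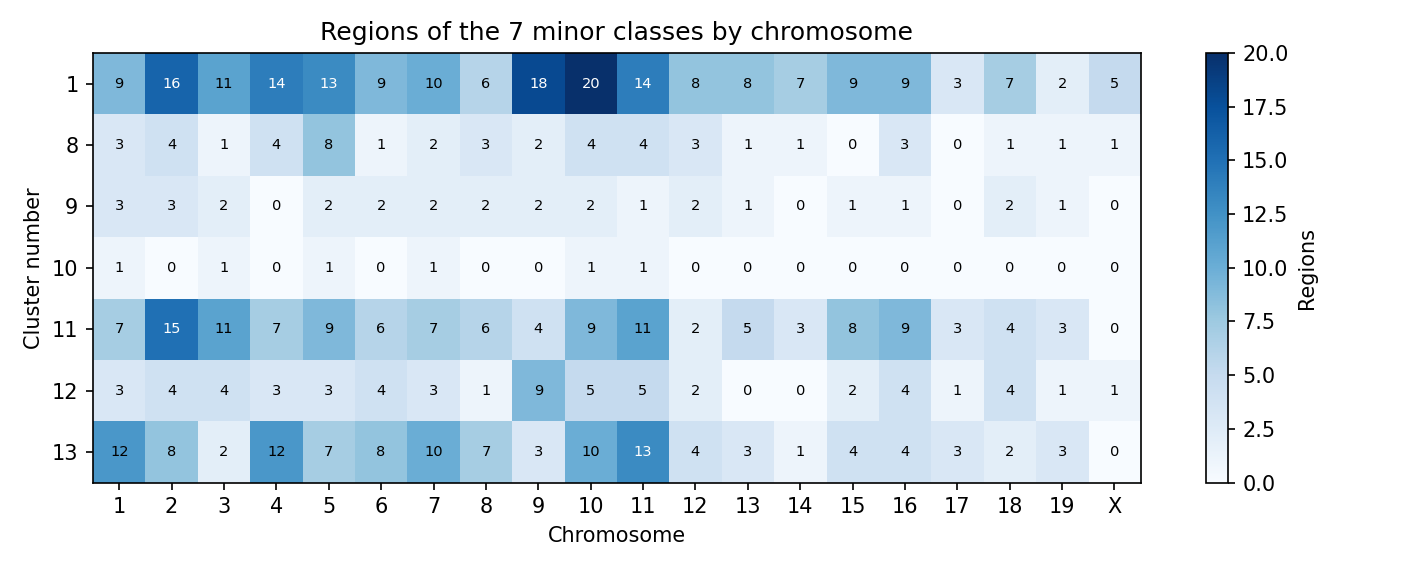
Number of regions of each of the 7 minor classes (rows, by cluster number) on each mouse chromosome (columns). Darker cells hold more regions, up to 20 for cluster 1 on chromosome 10. Clusters 11 and 13 have 0 on the X chromosome, with intervals that include the 1.298% of clusters 2 to 7.

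The classes differed in how far their regions lay from the next listed region of any cluster. Cluster 12 lay close, with a median distance of 13.9 kb and quartiles of 2.22 and 68.8 kb. Cluster 1 lay far apart, with a median of 74.0 kb and quartiles of 11.9 and 220.2 kb. The median was 38.8 kb in clusters 2 to 7 together. It was 12.85 kb in cluster 5, 19.1 kb in cluster 6 and 21.4 kb in cluster 4. Cluster 12 was therefore not alone in lying close. The median was 45.25 kb in cluster 2, 49.955 kb in cluster 7 and 50.63 kb in cluster 3. Their upper quartiles were 154.64, 166.76 and 159.1 kb. The median of cluster 1 thus lay less far above these classes than above clusters 2 to 7 together. Between clusters 12 and 1 came cluster 8, at 28.4 kb, then clusters 11, 9 and 13 at 40.9, 45.2 and 51.6 kb. Clusters 9 and 13 thus had medians near those of clusters 2, 3 and 7. Cluster 10 had a median of 9.99 kb, but on 6 regions. The ranges between the quartiles overlapped in all 7 classes.

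Of the 584 regions, 55 had no other listed region within 500 kb, and 27 of these were of cluster 1 (13.6% of that class). In 9 regions of cluster 1 there was none within 1 Mb. In clusters 2 to 7, 6.65% had none within 500 kb. By class the share was 3.31% in cluster 4, 3.45% in cluster 5 and 4.45% in cluster 6. It was 7.14% in cluster 2, 7.36% in cluster 7 and 7.83% in cluster 3. Cluster 12 had 1 such region of 59 (1.69%), and none of its regions was over 1 Mb from another. The count was 11 of 116 in cluster 13 (9.48%) and 8 of 129 in cluster 11 (6.20%). It was 4 of 47 in cluster 8, 3 of 29 in cluster 9 and 1 of 6 in cluster 10.

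**Figure D2:**
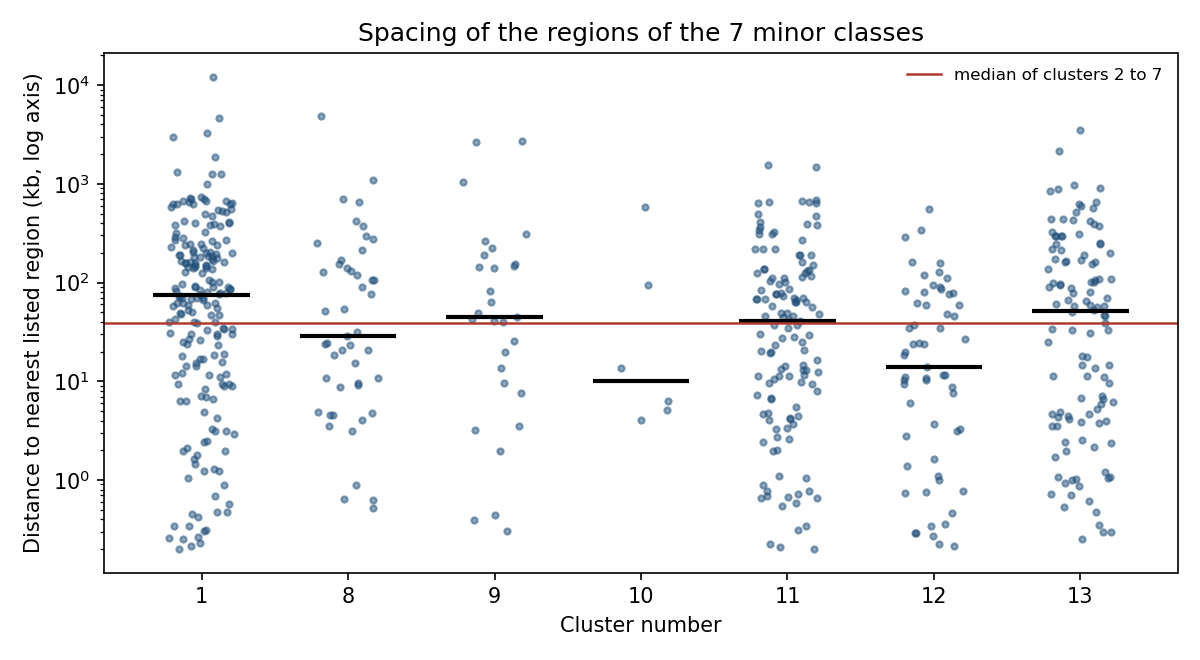
Distance in kb (log axis) from each region of the 7 minor classes to the nearest other listed region, 1 point per region, with a black bar at the median of the class. The red line is the median of clusters 2 to 7 (38.8 kb). Cluster 12 (13.9 kb) lies below it and cluster 1 (74.0 kb) above it. Within clusters 2 to 7, not drawn by class, the medians run from 12.85 kb (cluster 5) to 50.63 kb (cluster 3).

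The question whether minor classes lie alone or beside other binding regions was put as the share with another listed region within 10 kb. Over the whole list this share was 29.5%. In the 7 classes together it was 29.8% (174 of 584, interval 26.1% to 33.7%) and in clusters 2 to 7 it was 29.4% (1496 of 5086). The difference was 0.38 percentage points, with a 95% interval of -3.41 to 4.41 (two-sided Fisher's exact test, adjusted p = 1). This result depends on neighbours of the same class. With linked regions of a class counted once, the share was 28.7% against 20.7%, a difference of 8.09 points (Fisher's exact test, adjusted p = 0.000113). That setting takes away same-class neighbours, of which the large classes have more, and it lowers the comparison share most. It therefore cannot decide whether the minor classes have more neighbours.

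With every region counted, no single class passed the threshold at 10 kb. Cluster 1 was lowest, at 23.2% (46 of 198, Fisher's exact test, adjusted p = 0.461). Next were clusters 9, 8 and 11 with 27.6% (8 of 29), 29.8% (14 of 47) and 30.2% (39 of 129). Cluster 13 had 35.3% (41 of 116, adjusted p = 0.482) and cluster 12 had 39.0% (23 of 59, adjusted p = 0.461), both by Fisher's exact test. Cluster 10 had 3 of 6, with an interval of 11.8% to 88.2% that gives no useful limit. For cluster 12 the difference from clusters 2 to 7 was 9.57 points with an interval of -1.90 to 22.4. With linked regions of a class counted once, clusters 11, 12 and 13 passed, at 8.81, 18.3 and 14.7 points above clusters 2 to 7 (Fisher's exact test, adjusted p = 0.0411, 0.00469 and 0.00120). The difference of cluster 1 was then -0.137 points (Fisher's exact test, adjusted p = 1), after -6.18 with every region counted. Clusters 11, 12 and 13 had no same-class pair within 10 kb. Under this setting clusters 12 and 13 kept shares of 39.0% and 35.3%, and cluster 11 had 29.5%. The comparison share fell from 29.4% to 20.7%, so these calls cannot decide whether the 3 classes have more neighbours.

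At longer distances clusters 1 and 12 differed from clusters 2 to 7 as a pool, in opposite directions. Within 100 kb, 68.6% of all listed regions had another. Of the 59 regions of cluster 12, 51 did (86.4%, interval 75.0% to 94.0%), compared with 69.0% in clusters 2 to 7, a difference of 17.4 points (interval 6.40 to 24.1, Fisher's exact test, adjusted p = 0.0110). Of the 198 regions of cluster 1, 114 did (57.6%, interval 50.4% to 64.6%), a difference of -11.4 points (interval -18.5 to -4.62, Fisher's exact test, adjusted p = 0.00800). Within 50 kb cluster 1 had 41.9% against 54.8% (Fisher's exact test, adjusted p = 0.00366), while cluster 12 had 69.5% and did not pass (adjusted p = 0.101). The comparison classes themselves differed within 100 kb. Their shares were 64.0% in cluster 7, 65.1% in cluster 3 and 68.1% in cluster 2. They were 76.2% in cluster 6, 79.5% in cluster 4 and 83.3% in cluster 5. Cluster 1 was not tested against cluster 3 or cluster 7 alone. Clusters 5 and 6 also had high shares within 10 kb, 45.6% and 40.9%, and cluster 12 was not tested against either. Each distance was adjusted for its own 8 tests, and 10 kb was the distance chosen as the main one. Adjusted over all 32 tests at the 4 distances, the same 3 calls stood (Fisher's exact test, adjusted p = 0.0160 and 0.0146 for cluster 1 at 100 kb and 50 kb, and 0.0292 for cluster 12 at 100 kb). Within 1 kb neither class passed. Cluster 12 then had 18.6% and cluster 1 had 8.59%, against 10.9% (Fisher's exact test, adjusted p = 0.709 and 1).

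The other 5 classes passed the threshold at none of these 4 distances. At 100 kb the share was 61.7% in cluster 8, 62.1% in cluster 9, 63.8% in cluster 13 and 69.8% in cluster 11. The interval of the difference was -7.72 to 8.15 points for cluster 11 and -14.3 to 3.07 for cluster 13. It was wider for cluster 8, from -21.6 to 5.28, and for cluster 9, from -25.0 to 8.37.

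**Figure D3:**
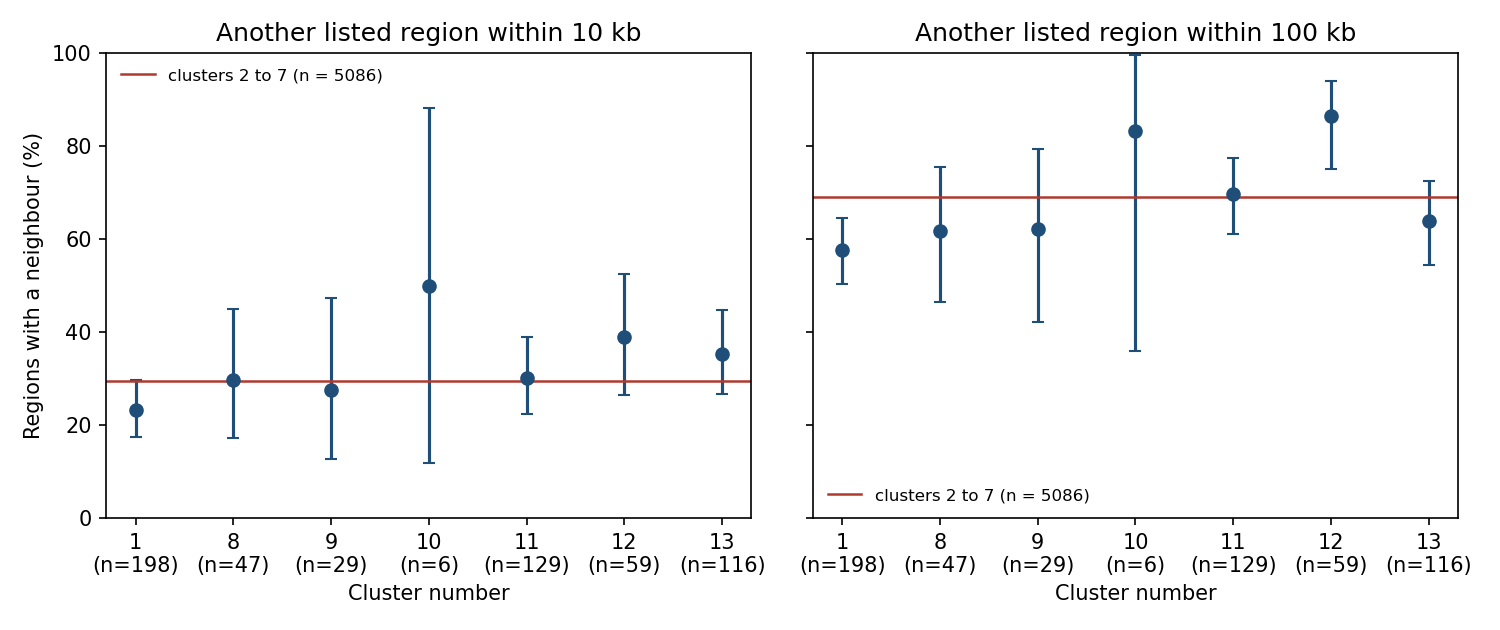
Percent of regions of each minor class (x axis, cluster number and number of regions) with another listed region within 10 kb (left) or 100 kb (right), with exact 95% binomial intervals. The red line is the share in clusters 2 to 7, 29.4% and 69.0%; at 100 kb the interval of cluster 1 lies below it and that of cluster 12 above it.

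The nearest listed region most often belonged to cluster 3, the largest class, in every minor class but cluster 12. In that class the nearest region was in cluster 6 for 21 of 59 (35.6%, interval 23.6% to 49.1%) and in cluster 3 for 19 (32.2%). Cluster 6 makes up 11.1% of the list and was the nearest for 11.4% of clusters 2 to 7. By class, it was the nearest for 19.1% of cluster 5 and 17.3% of cluster 6. Among nearest regions within 10 kb, the share in cluster 12 was 39.1% (9 of 23, interval 19.7% to 61.5%). That interval includes the shares at that limit in clusters 5 and 6, 26.7% and 25.3%. Cluster 11 had cluster 6 as the nearest for 27 of 129 (20.9%, interval 14.3% to 29.0%). This interval includes the shares in clusters 5 and 6 themselves, 19.1% and 17.3%. For cluster 1 the share was 6.06% (12 of 198, interval 3.17% to 10.3%). No test was made of these shares. Nearest regions are also drawn from places where clusters already crowd, and the part of that crowding was not tested.

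Cluster 3 was the nearest for 53.2% of cluster 8 (25 of 47) and 47.0% of cluster 1 (93 of 198). Its share was 36.2% in cluster 13 (42 of 116), 35.7% in cluster 11 (46 of 129) and 34.5% in cluster 9 (10 of 29). It makes up 43.5% of the list and was the nearest for 41.7% of clusters 2 to 7. The intervals of clusters 1, 8, 9 and 13 include that 41.7%. For cluster 11 the interval was 27.4% to 44.6% and includes it as well. Cluster 5 was the nearest for none of the 47 regions of cluster 8, with an exact interval up to 7.55%. That limit lies above the 6.65% that cluster 5 makes up of the list. It lies just below the 7.59% of clusters 2 to 7 that had cluster 5 as the nearest. No test was made of this share.

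**Figure D4:**
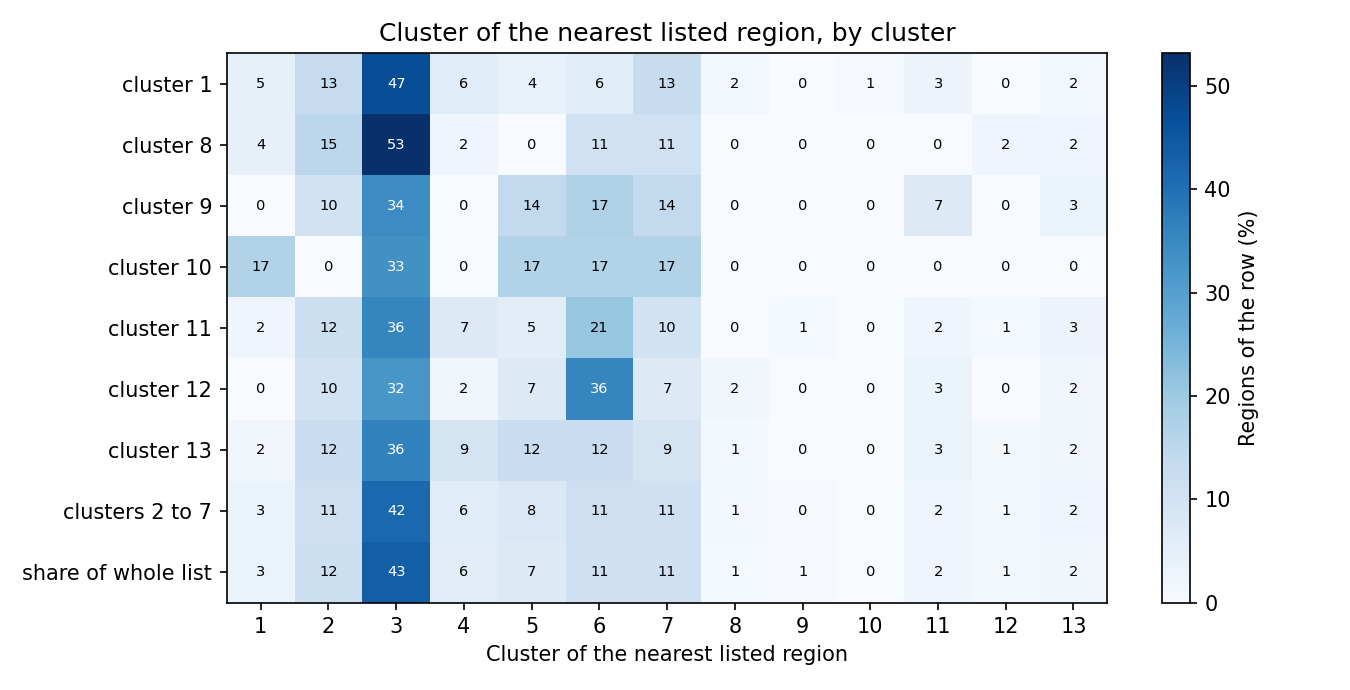
Cluster of the nearest listed region (columns) for each minor class and for clusters 2 to 7 (rows), in percent of the row's regions, with the share of each cluster in the whole list as the last row. Cluster 12 has 35.6% in the column of cluster 6, against 11.1% of the list. Clusters 5 and 6, not drawn as rows, have 19.1% and 17.3% there.

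Of 3 combinations examined, pairs of cluster 12 with cluster 6 had the lowest median distance. There were 11 such pairs within 10 kb, with a median distance of 0.730 kb, and 6 of them were within 1 kb. The closest lay on chromosome 10, at positions 44451020 (cluster 12) and 44450795 (cluster 6), 225 bp apart. Others lay on chromosome 6 at 121193205 and 121193475 (270 bp), on chromosome 7 at 17643965 and 17643675 (290 bp), and on chromosome 16 at 25407270 and 25407735 (465 bp), the cluster 12 region being given first. On chromosome 2 a region of cluster 12 at 30118715 had 2 of cluster 6 near it, at 30119005 and 30121645. The 11 pairs involved 10 regions of cluster 12, or 16.9% of the class, on 7 chromosomes. Close pairs of cluster 12 were not limited to cluster 6. It had 8 pairs with cluster 7 within 10 kb, whose median distance was not computed. Among these, cluster 12 regions at 89682205 on chromosome 3, 147814000 on chromosome 6 and 52331130 on chromosome 3 lay 215, 340 and 355 bp from cluster 7.

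Cluster 11 also met cluster 6, but farther off. Its 16 pairs within 10 kb had a median distance of 5.30 kb, and 1 of them was within 1 kb, on chromosome 2 at 169309485 and 169309710. On chromosome 9 a region of cluster 11 at 43889165 lay between 2 of cluster 6, at 43887170 and 43894620. On chromosome 17 another, at 28656055, lay between cluster 6 regions at 28649955 and 28660115. Cluster 13 met cluster 5 in 12 pairs, with a median of 1.51 kb and 4 within 1 kb. In 3 of these pairs the cluster 13 region was the same, at 74941905 on chromosome 1, with cluster 5 regions at 74942605, 74944785 and 74947745. These 3 combinations were chosen because they were already known to be frequent in this list, so their counts are a description.

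Within 10 kb there were 3 pairs of regions of the same minor class, all of cluster 1. Small classes can form few such pairs, and no expected number was computed. Of the 46 cluster 1 regions with a neighbour within 10 kb, 6 had another of cluster 1 as the nearest. This was 13.04% (interval 4.94% to 26.3%), and cluster 1 makes up 3.49% of the list. These 6 are the 3 pairs counted from each side, so the interval may be too narrow. An own-class share above the list share was not particular to cluster 1. It was 14.04% against 5.86% in cluster 4, 22.7% against 6.65% in cluster 5 and 25.3% against 11.1% in cluster 6. Clusters 3 and 7 were also above their list shares, at 53.6% and 28.1%. Cluster 2 was not, at 10.9% against 11.6%. Of the 3 cluster 1 pairs, that on chromosome 9 was at 112766400 and 112767640 (1.24 kb apart). Those on chromosomes 7 and 8 were at 108986470 and 108988450 (1.98 kb), and at 34764535 and 34773440 (8.91 kb). None of the 129 regions of cluster 11 and none of the 116 of cluster 13 had another of its class within 10 kb, which allows shares of up to 2.82% and 3.13% by the exact interval. Within 100 kb there were 14 pairs, 6 of cluster 1, 4 of cluster 11, 3 of cluster 13 and 1 of cluster 12. That of cluster 12 lay on chromosome 16 at 25407270 and 25426145. Clusters 8, 9 and 10, with 47, 29 and 6 regions, had none.

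Regions of different minor classes met in 7 pairs within 10 kb, and cluster 13 was in 6 of them. It lay 1.01 kb from a cluster 12 region on chromosome 2 (173515540 and 173514530) and 1.04 kb from a cluster 11 region on chromosome 1 (138756415 and 138755375). It lay 2.35 kb from a cluster 1 region on chromosome 10 (19539790 and 19537445) and 4.66 kb from a cluster 11 region on chromosome 8 (70645515 and 70650175). It met cluster 8 in 2 pairs, on chromosome 16 (85041775 and 85045315) and on chromosome 12 (55839495 and 55834765). The remaining pair joined cluster 1 at 101600205 and cluster 11 at 101603475 on chromosome 3. No expected number was computed for these pairs. Of the 41 cluster 13 regions with a neighbour within 10 kb, 4 had a minor region as the nearest (9.76%, interval 2.72% to 23.1%). In clusters 2 to 7 that share was 10.2%, which the interval includes. The share counts only the single nearest region, not pairs, and its interval is wide. It therefore cannot decide whether the 6 pairs of cluster 13 are more than its size would give. Of all 1240 pairs of listed regions within 10 kb, 223 had 1 region of the minor classes and 10 had 2.

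The fullest windows of 100 kb held 2 of the 584 regions, and there were 43 such windows without overlap. The first 3 in genome order were the pair on chromosome 1 given above, a window on chromosome 2 with cluster 1 regions at 30547865 and 30574845 and 3 regions of clusters 3 and 7 between them, and a window on chromosome 2 with cluster 8 at 38503075 and cluster 1 at 38531485. Linked at gaps of up to 10 kb, 410 of the 584 regions stood alone, 117 were in groups of 2, 38 in groups of 3 and 19 (3.25%) in groups of 4 or more. In clusters 2 to 7, 4.29% were in groups of 4 or more. The 162 groups of 2 or more with a minor region held at most 2 of them, and 12 held 2.

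A few members lay inside the crowded parts of the list. A region of cluster 13 at 117813685 on chromosome 11 had 25 listed regions within 100 kb, and it was the edge of a linked group of 10 whose other 9 were all of cluster 3. This was the only minor region among the 23 of the fullest window of the list. On chromosome 10, a region of cluster 12 at 59379105 had 14 listed regions within 100 kb and belonged to a linked group of 7 from 7 different clusters. On chromosome 2, a region of cluster 11 at 167607325 had 13 within 100 kb. On chromosome 8, a region of cluster 12 at 124375745 had 12, and a region of cluster 8 at 129363225 had 9. These were named after their values were seen.

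The closest and the most isolated regions of each class show its range. In cluster 1, regions at 109630935 on chromosome 12 and 31599210 on chromosome 11 lay 200 bp and 215 bp from a cluster 3 region. At the other end, the cluster 1 region at 113367695 on the X chromosome had its nearest neighbour 12.2 Mb away, a region of cluster 8. In cluster 8, the closest were at 83281410 on chromosome 11 (525 bp from cluster 2) and 139575680 on chromosome 5 (625 bp from cluster 3), and the farthest was at 15356345 on chromosome 5 (4.83 Mb). In cluster 9, they were at 50961110 on chromosome 3 (305 bp from cluster 3), at 37351325 on chromosome 6 (390 bp from cluster 5), and, most isolated, at 13119690 on chromosome 6 (2.72 Mb).

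In cluster 11, a region at 112958105 on chromosome 11 lay 200 bp from cluster 3 and one at 25553030 on chromosome 2 lay 210 bp from cluster 7. The farthest, at 41888485 on chromosome 15, was 1.53 Mb from its nearest neighbour. In cluster 12, a region at 89682205 on chromosome 3 lay 215 bp from cluster 7, and the farthest, at 31679295 on chromosome 9, was only 0.555 Mb from its neighbour, a region of cluster 6. In cluster 13, regions at 55554685 on chromosome 4 and 5900465 on chromosome 11 lay 250 bp from cluster 5 and 300 bp from cluster 6, and the farthest was at 64228715 on chromosome 2 (3.48 Mb). All classes but cluster 10 thus had regions within 1 kb of a region that the authors placed in another cluster.

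All 6 regions of cluster 10 can be named, and each was on a different chromosome. That on chromosome 7 (144393085) lay 4.04 kb from a cluster 3 region, that on chromosome 11 (87257145) lay 5.09 kb from cluster 5, and that on chromosome 10 (93222705) lay 6.25 kb from cluster 6. The region on chromosome 5 (140612175) was 13.7 kb from cluster 7. The region on chromosome 1 (155121990) was 93.8 kb from cluster 3, and the region on chromosome 3 (80465955) was 582 kb from cluster 1. The regions on chromosomes 10 and 11 each had 6 listed regions within 100 kb and that on chromosome 3 had none.

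Gaps in the list touch these values. Region numbers run to 5874 by position within each chromosome, with the chromosomes in text order (chromosome 10 follows chromosome 1). Of these numbers, 204 have no entry and were not analysed here. Of the 584 regions, 33 (5.65%) stand next to such a number, against 5.84% in clusters 2 to 7, so a closer neighbour may not be seen for them. By class this was 9 regions of cluster 1, 8 of cluster 13, 7 of cluster 11, 5 of cluster 8, 3 of cluster 9 and 1 of cluster 10. It was none of the 59 in cluster 12, so leaving such regions out removed no member of that class. That setting was run at 10 kb only, and the part of the gaps in the shares of cluster 12 was not tested.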

How the data were processed

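Per the labels, ChIP DNA was sequenced as 36 bp reads in 5 libraries. The submitters' processing notes name Bowtie, MACS 1.3.7.1 and mm9. For thresholds, the use of IgG, merging and clustering, nothing is stated in the sources used here. Per the file header, the deposited file is a list of peaks by cluster. It holds the authors' point positions (multiples of 5 bp) and cluster numbers, with no value per library.

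Members and tests were chosen with earlier results of these data known. Nearest distances were computed within chromosomes (Python 3.11.15, pandas 2.3.3) and tested on simulated positions. Shares with a neighbour were compared with clusters 2 to 7 by two-sided Fisher's exact test (scipy 1.17.1), Benjamini-Hochberg adjusted over 8 tests per distance (7 classes and all together), with 0.05 as threshold. Differences have Newcombe 95% intervals (statsmodels 0.14.6), and shares exact Clopper-Pearson intervals. Alternatives were distances of 1, 50 and 100 kb, counting linked regions of a class once, and leaving out regions or classes. Regions were named by rule: all of cluster 10, the 2 closest and 1 farthest of each other class, same-class pairs within 10 kb, and the 3 fullest windows. Others are marked as chosen afterwards. Gene location and motifs were planned but not analysed here, because no mm9 genome was used.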

Additional observations from a re-analysis of the deposited data

How the results depend on the processing

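No paired analysis was possible because each group is 1 library and the list has no value per library. Values here are differences in the share with a neighbour from clusters 2 to 7, in percentage points, and at 10 kb none was called. Over all classes together the sign turned to -0.447 at 1 kb, -3.73 at 50 kb and -3.75 at 100 kb. For cluster 1, 50 kb and 100 kb gave calls (-12.8 and -11.4). For cluster 12, 100 kb gave a call (17.4). Signs turned without a call for cluster 8 (-2.38 at 1 kb, -1.57 at 50 kb, -7.29 at 100 kb), cluster 13 (-1.41, -5.62 and -5.20), cluster 9 (0.414 at 50 kb) and cluster 10 (-10.9 at 1 kb). With linked regions of a class counted once, calls arose for all classes together (8.09), cluster 11 (8.81), cluster 12 (18.3) and cluster 13 (14.7), and cluster 9 turned to 6.94, while cluster 1 went from -6.18 to -0.137. That setting removes same-class neighbours, which the large classes have far more of, so it lowers the comparison share from 29.4% to 20.7%. Its calls cannot decide whether the minor classes have more neighbours. Against clusters 2, 3, 4 and 7, cluster 9 turned to 1.43. Without regions beside an unlisted number, an alternative added after the data were seen, clusters 8 and 9 turned to -3.86 and 0.721. Leaving out the fullest window or cluster 1 changed no call or sign. Counting regions of a class within 1 kb once could not change the class sizes, since no 2 regions of a minor class lay that close (the nearest were 1.24 kb apart). Among nearest regions within 10 kb only, the share in cluster 6 was 2.17% for cluster 1 (1 of 46, interval 0.0550% to 11.5%). The share in cluster 3 was 17.4% for cluster 12 (4 of 23, interval 4.95% to 38.8%). For cluster 13 it was 24.4% (10 of 41, interval 12.4% to 40.3%). At that limit cluster 3 had 36.5% in clusters 2 to 7, which both intervals include. By class this was 18.6%, 18.3% and 24.0% in clusters 5, 6 and 7, and 29.8%, 37.4% and 53.6% in clusters 4, 2 and 3. The share with a region of the same class rose from 0 at 10 kb to 6.20% for cluster 11 and 5.17% for cluster 13 at 100 kb. Start-site and motif alternatives were not run. The cause of the changes with distance was not tested, and unknown depth limits every count.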
